A study of Bubalus bubalis with 12 samples.

Results

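The receptors of the interleukin-6 (IL-6) cytokine family, their kinase JAK1, the transcription factor STAT3 and the feedback inhibitors SOCS1, SOCS2 and SOCS3 were examined in the ruminal wall of dairy buffaloes. The 10 genes were taken by gene name from a deposited expression table of 34037 genes, and each was above 0 in every animal. The table holds FPKM values, that is, fragments of a gene divided by its length and by the size of the library, so that levels can be compared between genes as well as between animals. Ruminal wall came from 12 adult Italian Mediterranean dairy buffaloes (Bubalus bubalis) that had calved several times. The control group (n = 6) was fed a total mixed ration (TMR), and the treated group (n = 6) a TMR in which green ryegrass made up about 30% of the diet. The treated ration also held less corn silage, less alfalfa hay and no soybean meal, so that green feed and the changes in these other components cannot be told apart. Each animal gave 1 library of total RNA.

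Cytokines of the IL-6 family act through receptors that share the chain gp130, encoded by IL6ST. IL-6 and IL-11 first bind a chain of their own (IL6R, IL11RA) that lends specificity but signals poorly by itself, and the complex then joins a pair of gp130 chains. Leukemia inhibitory factor and oncostatin M instead bring gp130 together with LIFR or OSMR, which signal themselves. The receptor tails hold kinases of the JAK family, chiefly JAK1, which mark the receptor with phosphate and so recruit STAT3. STAT3 enters the nucleus and switches on genes of survival, growth and the acute phase response, among them SOCS3, whose protein binds gp130 and shuts the pathway down. SOCS1 blocks JAK kinases directly and is best known as a brake on interferon signalling. SOCS2 is induced by STAT5 and acts mainly on the growth hormone receptor. In stratified epithelia, such as the lining of the rumen, the pathway is known for its part in growth and repair.

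The libraries held between 10531541 and 12948372 counted fragments, and 1 fragment was worth about 0.0257 FPKM for a gene of median length. Of the epithelial markers, KRT5, a keratin of the basal layer of stratified epithelium, averaged 1493 FPKM, and no marker of epithelium, smooth muscle, fibroblasts, endothelium or leukocytes was at 0 in all animals. The median correlation of a library with the other animals was between 0.924 and 0.960. It was lowest in treated animal 6 (0.924) and control animal 6 (0.925), so results that rest on these animals are given with and without them. The limma fit covered 12639 genes that reached 42 reads, scaled to the mean depth, in at least 1 animal. At a nominal p-value below 0.05, the threshold used in the study, 156 genes passed between the diets, which is 1.23% of those tested. This is below the share of 0.05 expected at that threshold when no gene differs. After Benjamini-Hochberg adjustment, 0 passed (smallest adjusted limma p-value 0.9997). An exact permutation test on the same genes gave 221, or 1.75%, and over all 22972 genes above 0 it gave 1.96%. In limma the share was 2.45% over all genes above 0, 1.83% over genes with 0.1 FPKM or more in 6 animals, and 1.14% with voom on the reads.

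Of the 10 genes, 8 entered the fit, 1 was higher in treated animals at the nominal threshold (SOCS2), and 0 were lower. Among all genes tested, 0.783% were higher and 0.451% lower at this threshold in limma. The study, with edgeR on counts at the same nominal threshold, reported SOCS2 as higher and IL6ST and LIFR as lower in treated animals. There too, no gene passed after adjustment. None of the 8 passed the adjusted threshold in limma, and the control and treated values overlapped for each of the 10 genes. Groups that did not overlap were found for 0.0554% of the genes tested. IL11RA, with at most 21.9 scaled reads, and SOCS1, with at most 41.3, were below the read minimum, whereas the lowest gene inside it, SOCS2, reached 121. In the group means of log2 FPKM, 3 of the 10 genes were higher in treated animals (OSMR, IL11RA and SOCS2) and 7 were lower. SOCS1 was among the latter, although its mean FPKM was higher in treated animals. The median log2 difference was -0.08, beside 0.01 over all genes tested. The typical gene had a standard error of 0.20 on this scale.

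**Figure D1:**
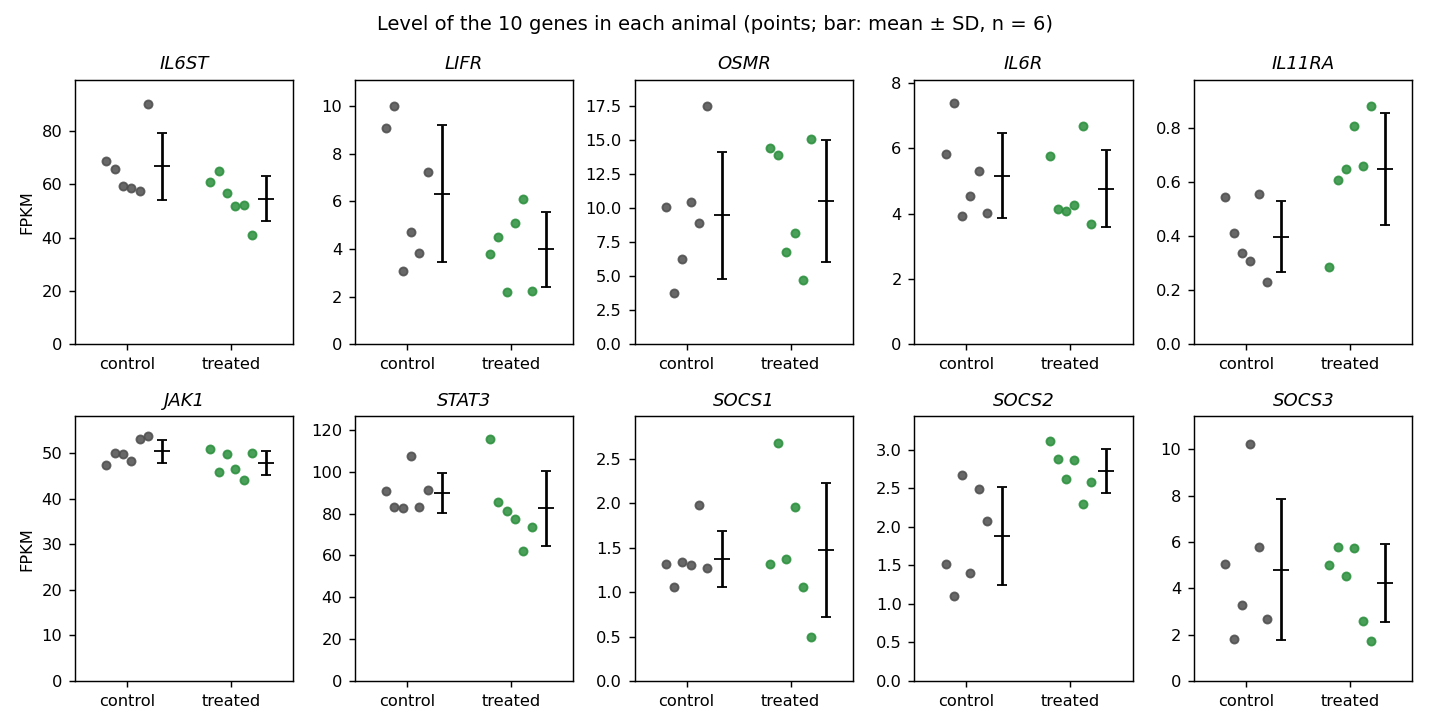
FPKM of each of the 10 genes in the 6 control (grey) and 6 treated (green) animals, 1 panel per gene with its own axis from 0, with the mean and SD as a bar beside the points. SOCS2 is between 2.29 and 3.11 FPKM in treated animals, against 1.10 to 2.68 in control animals, whereas JAK1 is between 44.0 and 53.8 FPKM in all 12.

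IL6ST (gene ID 102405590), the shared signalling chain, was the highest of the 5 receptor genes. It ranged from 57.3 to 90.2 FPKM in control animals (median 62.5) and from 40.8 to 64.8 FPKM in treated animals (median 54.5). The highest control animal and the lowest treated animal were the 2 libraries least like the others, and 5 of 6 treated animals were below the control median. The group means were 66.6 ± 12.4 and 54.5 ± 8.36 FPKM (SD, n = 6). The log2 difference was -0.29 ± 0.14 (SE, 95% interval -0.58 to 0.01), with a nominal limma p-value of 0.0577 and an exact permutation p-value of 0.0541. The gene was just outside the nominal threshold, which it passed in limma with median ratio scaling and with voom on the reads. Without both animals least like the others, a choice made after seeing the data, the log2 difference was -0.11 and outside the threshold.

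LIFR (102415704), the chain that pairs with gp130 for leukemia inhibitory factor, varied more. Its values were 3.06 to 9.99 FPKM in control animals (median 5.99) and 2.17 to 6.10 FPKM in treated animals (median 4.15). Control animals 1, 2 and 6 were above every treated animal, and the other 3 control animals were within the treated range. The means were 6.32 ± 2.88 and 3.99 ± 1.58 FPKM (SD, n = 6). The log2 difference of -0.64 ± 0.34 (SE, 95% interval -1.37 to 0.10) had a nominal limma p-value of 0.0835 and an exact permutation p-value of 0.126. It passed the nominal threshold without control animal 3 (log2 difference -0.82) or treated animal 5 (-0.78). Without both animals least like the others it was -0.42 and outside the threshold.

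The ruminal wall holds epithelium together with muscle and connective tissue, and in such bulk samples fewer cells of a type and less RNA per cell cannot be told apart. In the means of log2 FPKM, markers of smooth muscle were lower in the treated group in 7 of 7 tested genes, of which 1 passed the nominal threshold (DES, the muscle filament desmin, log2 difference -1.04, limma p = 0.0271, exact permutation p = 0.0519, named after its value was seen). SMTN, the most abundant of the 7, was nearly level, with a log2 difference of -0.03 and means of 13.4 FPKM in control and 13.5 FPKM in treated animals. Of the 3 smooth muscle markers below the read minimum, CNN1 (calponin) was at 1.17 ± 0.487 FPKM in control and 0.399 ± 0.443 FPKM in treated animals (SD, n = 6, exact permutation p = 0.0238). ACTG2 (gamma smooth muscle actin) was at 0.851 ± 0.406 and 0.307 ± 0.273 FPKM (SD, n = 6, exact permutation p = 0.0238). LMOD1, the third, was at 0.555 ± 0.415 and 0.345 ± 0.270 FPKM (SD, n = 6, exact permutation p = 0.271). All 3 were named after their values were seen. Over all genes above 0, 1.96% passed the exact permutation test at the nominal threshold. For the 7 tested markers, the median of the log2 differences was -0.72. The summed level of the list was 32.1 to 55.3 FPKM in control and 21.3 to 46.3 FPKM in treated animals. The 10 fibroblast markers were all lower in the mean of log2 FPKM, though THY1 was higher in mean FPKM (1.94 in control, 2.07 in treated animals). None of them was past the threshold in limma, with a median of -0.66 and sums of 47.8 to 291 against 20.3 to 184 FPKM. Of the endothelial markers, 7 of 9 were lower on the log2 scale, and their sums were 11.8 to 39.9 and 7.46 to 40.5 FPKM. Leukocyte markers were lower on the log2 scale in 6 of 6 tested genes, though CD14 was higher in mean FPKM (20.7 in control, 21.6 in treated animals), with sums of 36.5 to 59.0 and 28.1 to 57.1 FPKM. Epithelial markers were higher on the log2 scale in 6 of 10 genes, with sums of 2752 to 4121 and 2759 to 4871 FPKM. None of the endothelial, leukocyte or epithelial markers passed the threshold. With the smooth muscle and fibroblast markers as a covariate in limma, the log2 difference was -0.34 for IL6ST, -0.68 for LIFR and 0.65 for SOCS2, and IL6ST and SOCS2 passed the nominal threshold while LIFR did not. For STAT3 and IL6R the covariate gave -0.26 and -0.23, against -0.14 and -0.11 without it, both outside the threshold. The part of the muscle, fibroblast and other cells in the results was not tested.

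OSMR (102393840), the oncostatin M chain, was the second highest receptor gene. It ranged from 3.74 to 17.5 FPKM in control animals (median 9.50) and from 4.72 to 15.1 FPKM in treated animals (median 11.04). The groups overlapped over nearly their whole range, since 3 of 6 treated animals were above the control median. The means of 9.49 ± 4.66 and 10.5 ± 4.48 FPKM (SD, n = 6) gave a log2 difference of 0.17 ± 0.37 (SE, 95% interval -0.61 to 0.96). The limma p-value was 0.643 and the exact permutation p-value 0.669. Its spread between animals of the same group was above that of 88.1% of the genes tested.

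IL6R (102411639), the specific chain for IL-6, was more even, with 3.93 to 7.38 FPKM in control animals (median 4.93) and 3.69 to 6.68 FPKM in treated animals (median 4.20). The highest animal of each group, control animal 2 and treated animal 5, stood above the rest of its group, and 4 of 6 treated animals were below the control median. The means were 5.17 ± 1.31 and 4.77 ± 1.18 FPKM (SD, n = 6). The log2 difference was -0.11 ± 0.20 (SE, 95% interval -0.54 to 0.31), with p-values of 0.574 in limma and 0.569 in the exact permutation test. It depended on single animals, since it was -0.22 without treated animal 5 and -0.0031 without control animal 2, both outside the threshold.

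IL11RA (102411074), the specific chain for IL-11, was the lowest of the 10 genes and rested on 5 to 23 reads per animal. Control animals were between 0.232 and 0.558 FPKM (median 0.375) and treated animals between 0.286 and 0.883 FPKM (median 0.655). All treated animals but 1 were above every control animal, and the exception, treated animal 1, was below the control median. The means were 0.399 ± 0.131 and 0.649 ± 0.207 FPKM (SD, n = 6). The exact permutation test gave p = 0.0519 for a log2 difference of 0.68. In a limma fit over all genes above 0, the interval of this difference was -0.14 to 1.49. The gene was outside the nominal threshold by both tests. It passed with a pseudocount of 0.1 (exact permutation p = 0.0455) or 1 (exact permutation p = 0.0390) and with the exact rank-sum test (p = 0.0411). Of the 12 repeats that left out 1 animal, it passed in those without treated animal 1 (log2 difference 0.89, exact permutation p = 0.00649), control animal 1 (0.78, p = 0.0433) and control animal 5 (0.78, p = 0.0390). It did not pass in the other 9, where exact permutation p reached 0.108, and without both animals least like the others the difference was 0.43 (exact permutation p = 0.183).

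**Figure D2:**
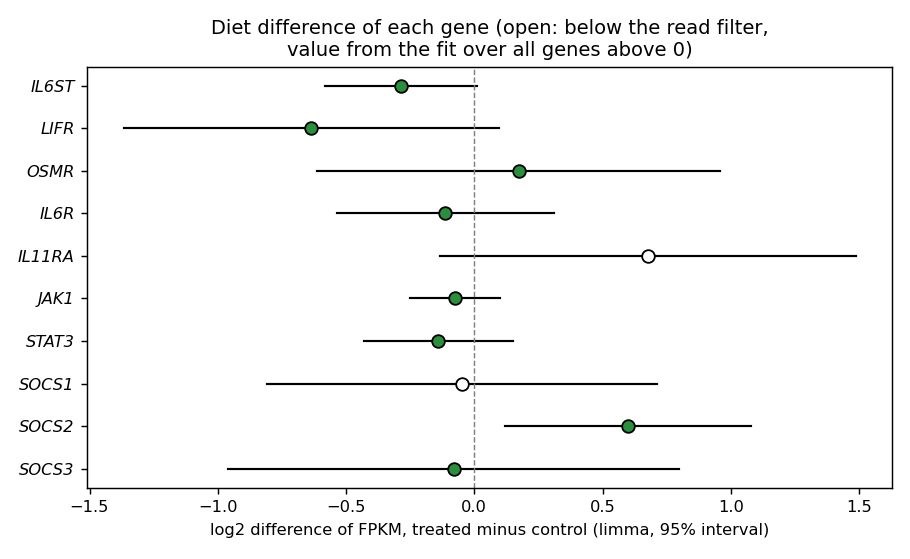
Log2 difference of FPKM between treated and control animals for each gene (points) with its 95% interval from limma (lines), and a dashed line at no difference. Open points mark IL11RA and SOCS1, which were below the read minimum and are taken from the fit over all genes above 0. The interval of SOCS2, 0.12 to 1.08, is the only one of the 10 that does not reach 0.

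To see whether a ligand-specific chain moved apart from the shared one, each was expressed as a percentage of the IL6ST level in the same animal. OSMR was at 14.0 ± 5.04% of IL6ST in control and 19.8 ± 10.1% in treated animals. LIFR was at 9.39 ± 3.93% and 7.33 ± 2.91%, and IL6R at 7.97 ± 2.32% and 8.85 ± 2.25%. The shared chain was above each partner in every animal, the highest single value being 37.0% for OSMR. For these 3 ratios the exact permutation test gave p-values of 0.288, 0.323 and 0.496. IL11RA was at 0.624 ± 0.244% of IL6ST in control and 1.26 ± 0.573% in treated animals (SD, n = 6, exact permutation p = 0.0411). After Benjamini-Hochberg adjustment over the 4 ratios, this value was 0.165 and none passed. The IL11RA ratio also lost the nominal threshold in 8 of 12 repeats that left out 1 animal (exact permutation p up to 0.0823). These were the repeats without control animals 2, 3, 4 or 6 or treated animals 3, 4, 5 or 6. Their log2 differences were 0.73 to 0.98, against 0.96 over all animals. The lowest IL11RA ratio, 0.257%, was in control animal 6 and the highest, 2.16%, in treated animal 6. These are the 2 libraries least like the others. Each was left out singly, but the ratio was not computed without both.

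**Figure D3:**
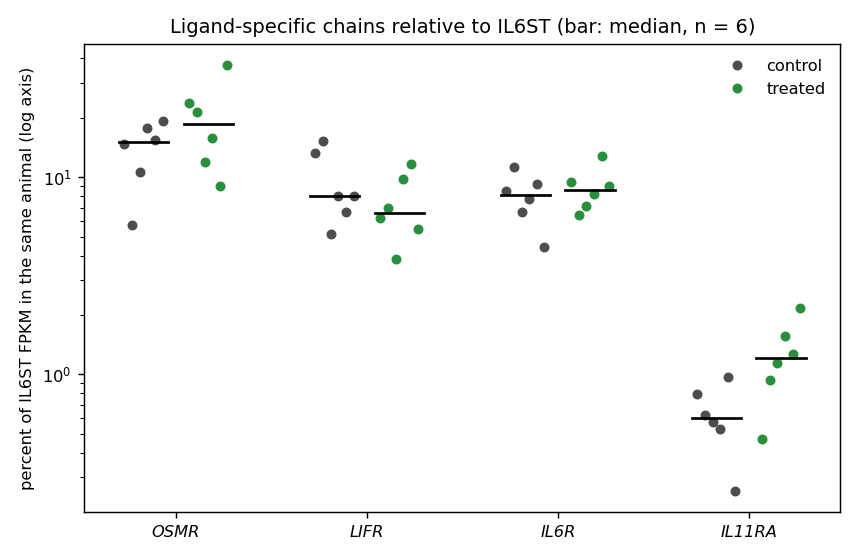
FPKM of OSMR, LIFR, IL6R and IL11RA as a percentage of the IL6ST FPKM of the same animal, on a log axis, for 6 control (grey) and 6 treated (green) animals, with a bar at each group median. OSMR, LIFR and IL6R lie between 3.83% and 37.0% and IL11RA between 0.257% and 2.16%.

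JAK1 (102405285), the main kinase of gp130, was the steadiest of the 10 genes. Control animals were between 47.4 and 53.8 FPKM (median 49.9) and treated animals between 44.0 and 50.8 FPKM (median 48.2). The highest animal was 1.22 times the lowest, and 0.182% of the genes tested had a smaller spread within the groups. The means were 50.4 ± 2.58 and 47.9 ± 2.71 FPKM (SD, n = 6), which is a coefficient of variation of 5.12% and 5.67%. The log2 difference was -0.08 ± 0.08 (SE, 95% interval -0.25 to 0.10), and the p-values were 0.372 in limma and 0.126 in the exact permutation test. The interval limits a difference in JAK1 more closely than in any other of the 10 genes.

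STAT3 (102414888), the transcription factor of the pathway, was the highest of the 10 genes. Its level was above that of 97.0% of all genes above 0. It ranged from 82.5 to 107 FPKM in control animals (median 87.1) and from 62.0 to 115 FPKM in treated animals (median 79.4). Treated animal 1 was the highest of all, while 5 of 6 treated animals were below the control median. The means were 89.7 ± 9.53 and 82.6 ± 18.0 FPKM (SD, n = 6). The log2 difference was -0.14 ± 0.14 (SE, 95% interval -0.43 to 0.15), with p-values of 0.320 in limma and 0.316 in the exact permutation test. It was -0.24 without treated animal 1, -0.09 without control animal 4 and -0.06 without treated animal 5, each outside the nominal threshold in limma. FPKM measure the RNA of STAT3 and JAK1 and not the phosphorylation through which these proteins act.

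SOCS2 (102405656), the inhibitor of growth hormone signalling, rose in treated animals at the nominal threshold. Control animals were between 1.10 and 2.68 FPKM (median 1.80) and treated animals between 2.29 and 3.11 FPKM (median 2.75), from 42 to 119 reads per animal. All 6 treated animals were above the control median, 3 of them were above every control animal, and 4 control animals were below every treated animal. The means were 1.88 ± 0.636 and 2.73 ± 0.287 FPKM (SD, n = 6). The fold was 1.52 and the log2 difference 0.60 ± 0.22 (SE, 95% interval 0.12 to 1.08), with a nominal limma p-value of 0.0180 and an exact permutation p-value of 0.0195. After Benjamini-Hochberg adjustment over all genes the limma p-value was 0.9997. The SD of log2 FPKM was 0.50 in control and 0.15 in treated animals, a difference in spread that was not tested. SOCS2 kept a nominal p-value below the threshold in each of the 12 repeats that left out 1 animal (log2 difference 0.46 to 0.72 in limma), and without both animals least like the others (0.66).

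SOCS3 (102397559), the inhibitor that STAT3 induces, was the most variable of the 10 genes between animals. It ranged from 1.82 to 10.2 FPKM in control animals (median 4.14) and from 1.73 to 5.80 FPKM in treated animals (median 4.77). Control animal 4, the highest, was at 5.92 times the lowest, treated animal 6. The means were 4.80 ± 3.05 and 4.23 ± 1.69 FPKM (SD, n = 6). The log2 difference was -0.08 ± 0.41 (SE, 95% interval -0.96 to 0.80), with p-values of 0.848 in limma and 0.833 in the exact permutation test. Without control animal 4 it was 0.18.

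SOCS1 (102415684), the brake on interferon signalling, rested on 8 to 41 reads per animal. Control animals were between 1.06 and 1.99 FPKM (median 1.31) and treated animals between 0.494 and 2.68 FPKM (median 1.34). Both the highest and the lowest animal were in the treated group, and the group medians were nearly the same. The means were 1.38 ± 0.316 and 1.48 ± 0.754 FPKM (SD, n = 6). The log2 difference was -0.05 (exact permutation p = 0.920), while the mean on the linear scale was higher in treated animals. In the limma fit over all genes above 0 its interval was -0.81 to 0.71.

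Ordered by the mean over 12 animals, the genes fell into a high and a low range. STAT3 (86.1 FPKM), IL6ST (60.6) and JAK1 (49.1) formed the high range. OSMR (10.003), LIFR (5.15), IL6R (4.97), SOCS3 (4.51), SOCS2 (2.30), SOCS1 (1.43) and IL11RA (0.524) followed. Neighbours were compared within animals by an exact sign-flip permutation test of the log2 difference, adjusted over the 9 pairs. JAK1 was 5.41 times OSMR and higher in all 12 animals (adjusted exact p = 0.00146), the largest step between neighbours. STAT3 was above IL6ST in 12 of 12 animals (adjusted exact p = 0.00146) and IL6ST above JAK1 in 11 of 12 (adjusted exact p = 0.00732). OSMR was above LIFR in 10 of 12 animals (adjusted exact p = 0.0188). LIFR and IL6R did not differ beyond their spread (adjusted exact p = 0.670), nor did IL6R and SOCS3 (adjusted exact p = 0.331), and by the medians SOCS3 stood ahead of both. SOCS3 was above SOCS2 in 11 animals, SOCS2 above SOCS1 in 12 and SOCS1 above IL11RA in 11 (adjusted exact p = 0.00615, 0.00146 and 0.00330).

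Whether the genes varied together between animals was examined after each animal had been centred on its group mean. Of the 45 pairs, 24 correlated positively and 21 negatively, 4 had a raw permutation p-value of Pearson's r below 0.05, and 0 passed Benjamini-Hochberg adjustment. SOCS1 and SOCS3 had the highest value (r = 0.68, permutation p = 0.0123, adjusted 0.370, rho = 0.76, permutation p = 0.00601). Without the 2 animals farthest from the median of centred SOCS1, r was 0.58. LIFR and IL6R, which bind different cytokines, gave r = 0.64 (permutation p = 0.0276) and rho = 0.75 (permutation p = 0.00696). Without the 2 animals farthest in LIFR, r was 0.55. IL11RA went against STAT3 (r = -0.67, permutation p = 0.0194, rho = -0.62, permutation p = 0.0352) and against IL6ST (r = -0.58, permutation p = 0.0481, rho = -0.57, permutation p = 0.0584). The first dropped to -0.35 without the 2 animals farthest in IL11RA, and the second to -0.32 without the 2 farthest in IL6ST. In each pair only 1 gene set which animals were left out, and leaving out its extremes narrows its range. How far these relations rest on single animals was therefore not tested. STAT3 and its target SOCS3 gave r = 0.54 (permutation p = 0.0655) and rho = 0.56 (permutation p = 0.0633), outside the raw threshold. Without the 2 animals farthest in STAT3, r was 0.68. Other pairs outside the threshold were as strong, such as OSMR and STAT3 (r = 0.56, permutation p = 0.0586) and LIFR and SOCS2 (r = -0.55, permutation p = 0.0622).

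**Figure D4:**
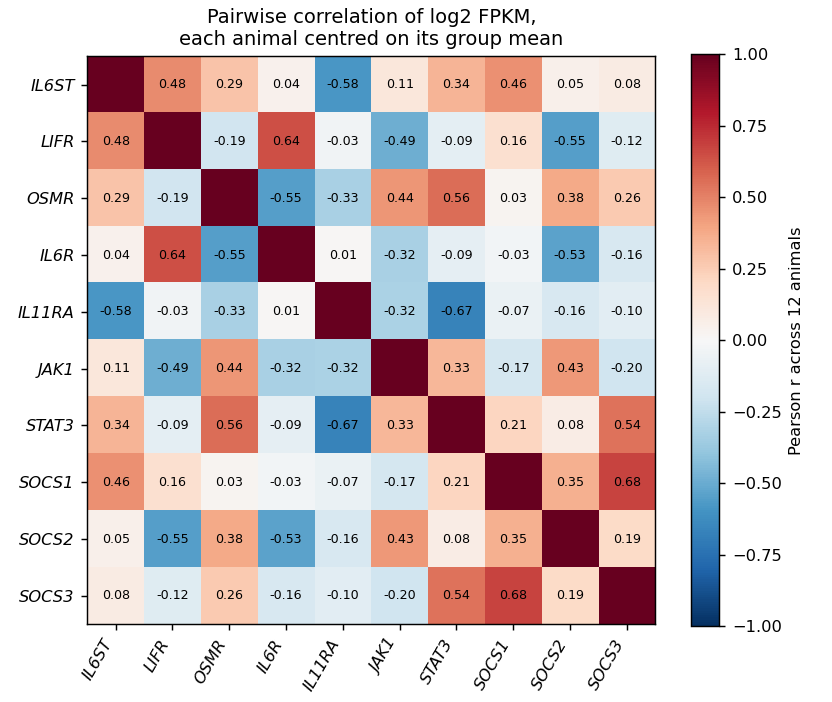
Pearson's r of log2 FPKM for each pair of the 10 genes over 12 animals, each animal centred on its group mean, from blue (negative) to red (positive). The highest value off the diagonal is 0.68 (SOCS1 and SOCS3) and the lowest -0.67 (IL11RA and STAT3).

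Among the other genes tested, those most like IL6ST across the 12 centred animals were ELK4 (r = 0.967), BRWD1 (0.966) and SMG1 (0.965). Most like LIFR were TNFRSF19 (0.885), REXO5 (0.882) and AASS (0.881). SOCS2 was closest to LAMB1 (0.888), GPSM2 (0.848) and UPP1 (0.827). UPP1, a uridine phosphorylase, was also higher in treated animals (log2 difference 0.43, past the nominal threshold in limma). SOCS3 was closest to SHB (0.931), FOSL1 (0.905) and IRF7 (0.881). These values describe the same 12 libraries and are the highest of 12639 genes, so no test was attached to them.

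The remaining genes of the pathway were taken as lists of 86 genes, of which 78 were in the table by name and 52 entered the fit. None of the 52 passed the nominal threshold in limma in either direction, against 1.23% of all genes tested. They divided into 25 higher and 27 lower group means of log2 FPKM, with a median log2 difference of -0.01. The cytokines of the family were near the limit of detection, since 0 of the 10 found reached the read minimum. EBI3, a subunit of interleukins 27 and 35, was the highest at 1.04 FPKM, followed by OSM, oncostatin M, at 0.470 FPKM. IL6 was found with 4 reads in all 12 libraries together and was at 0 in 9 animals. LIF, leukemia inhibitory factor, had 15 reads and IL11 had 36. Of the 10 genes described here, only IL11RA averaged below EBI3 in FPKM.

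**Figure D5:**
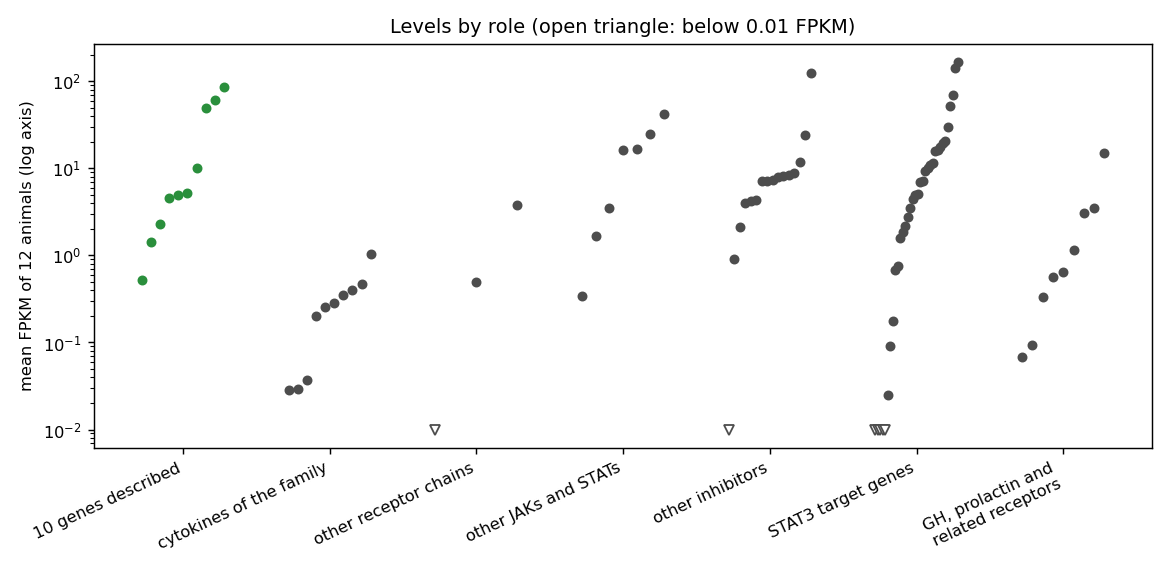
Mean FPKM over 12 animals, on a log axis, of the 10 genes (green) and of each other pathway list (grey, 1 point per gene in rising order), with open triangles for genes below 0.01 FPKM. The highest cytokine is at 1.04 FPKM, below 9 of the 10 genes.

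Of the other receptor chains, IL27RA, which joins gp130 for interleukin 27, averaged 3.77 FPKM (log2 difference -0.26), and CNTFR, the chain for ciliary neurotrophic factor, 0.497 FPKM. Of the other JAK kinases and STAT factors, 7 of 9 were found by name, STAT5A and STAT5B being the genes not found. STAT6, the factor of interleukin 4, was at 24.8 FPKM (log2 difference 0.03), below STAT3. Of 16 other inhibitors, 14 were tested, with 6 higher and 8 lower means of log2 FPKM. NDUFA13, a subunit of mitochondrial complex I that also binds STAT3, was the highest at 124 FPKM (log2 difference 0.21). PTPN11, the phosphatase SHP2, which docks at the same gp130 site as SOCS3, followed at 24.5 FPKM (0.01).

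STAT3 target genes were represented by 25 tested genes, 12 with a higher and 13 with a lower mean of log2 FPKM in treated animals and a median log2 difference of -0.01 (range -0.32 to 0.21). CEBPD, a transcription factor of the acute phase response, was the highest at 165 FPKM (log2 difference -0.12). MCL1, which protects cells from death, followed at 144 FPKM (-0.02). Of a list of growth hormone, prolactin and related cytokine receptors, the class of receptors on which SOCS2 is best known to act, 7 genes were tested. PRLR, the prolactin receptor, was at 15.1 FPKM (log2 difference 0.03) and IL4R, the interleukin 4 receptor, at 3.48 FPKM (-0.01). GHR, the growth hormone receptor, was at 0.429 ± 0.187 FPKM in control and 0.231 ± 0.189 FPKM in treated animals (SD, n = 6). GHR had at most 40 reads in any animal, so it reached the minimum of 42 only by scaling to the mean depth. Only control animal 6, the shallowest library (10531541 fragments) and among the animals least like the others, could be raised that far. GHR thus entered the fit through the group in which it was higher. The log2 difference of GHR, -1.03, was just outside the nominal threshold (limma p-value 0.0505, exact permutation p = 0.0563). It passed in limma with voom, with robust empirical Bayes, with the replicate number as a block, without control animal 2, without treated animal 6 and without both animals least like the others. CSF2RB, the shared beta chain of the interleukin 3 and 5 receptors, had a log2 difference of 0.56 (exact permutation p = 0.0801). GHR and CSF2RB were named after their values were seen, and none of the 7 genes passed the nominal threshold in limma over all animals.

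The chains LIFR and OSMR are neighbours on the chromosome in the RefSeq gene table of the buffalo assembly NDDB_SH_1, with 0 coding genes between them. IL6ST lies on the same chromosome, with 60 coding genes between it and OSMR. All 10 genes matched this table by gene ID and symbol. Across the 12 centred animals the neighbours LIFR and OSMR gave r = -0.19 (permutation p = 0.545) and rho = -0.22 (permutation p = 0.486). Without the 2 animals farthest in LIFR, r was -0.53.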

How the data were processed

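Total RNA of the ruminal wall was sequenced as stranded paired-end libraries, 1 per animal. The authors trimmed the reads with Trimmomatic 0.39, aligned them to the buffalo genome UOA_WB_1 with STAR 2.5.2b and counted them per gene and by strand with featureCounts 2.0.0. What the authors deposited is a table of FPKM for 34037 genes, in which the fragments of a gene are divided by its length and by the size of the library. The tool that made the FPKM is not given in the sources used here. The deposited table has 16 columns, of which 12 matched the titles of the animals and 4 were not used here.

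FPKM are not counts, so the main test was limma 3.58.1 in R 4.3.3 (lmFit, eBayes with trend) on log2(FPKM + 0.01), with nominal p-values, as used in the study, beside Benjamini-Hochberg adjusted ones. The pseudocount understates the differences of low genes. The FPKM of a gene step in units of 1 read (tolerance 0.0001), so reads were worked out for 22972 genes above 0. Genes tested had 42 reads, scaled to the mean depth, in at least 1 animal, which is the study's filter rounded. Single genes were also compared by a two-sided exact permutation test over all 924 assignments (smallest p 0.00216). Correlations used 100000 permutations. Chi-square tests of reads over genes found no pair of libraries alike within sampling noise. The methods were tested on simulated data. Depth, between 10531541 and 12948372 fragments, covers counting error only.

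The 10 genes, the pathway lists and the marker lists were chosen with earlier results of these data known. Named are all 10 genes, the 2 highest genes of each pathway list and any past the nominal threshold, the highest marker, and the 3 genes most like IL6ST, LIFR, SOCS2 and SOCS3. IL6, LIF, IL11, GHR, CSF2RB, several markers and genes named only in the closing section were added after their values were seen. A gene that the rule would name is not reported here. Alternatives were pseudocounts of 0.1 and 1, other filters, median ratio scaling, robust empirical Bayes, voom, an exact rank-sum test, a muscle and fibroblast covariate, the replicate number as a block, and each animal left out in turn. Leaving out both animals least like the others was chosen after seeing the data. Python 3.11.15 with numpy 2.4.6, scipy 1.17.1, pandas 2.3.3 and matplotlib 3.10.9 was used.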

Additional observations from a re-analysis of the deposited data

Results flagged for a closer look

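In 3 of 30 groups checked, the highest animal lay far from the other 5 of its group, its gap to the nearest of them, as a share of the group's range, being above the 95% critical value of Dixon's test for 6 animals. Some such groups arise by chance among this many, and whether 3 is more than that was not tested. IL6ST was at 90.2 FPKM in control animal 6, against 57.3 to 68.7 FPKM in the other control animals, a gap of 0.652 of the range. This animal is also among the 2 libraries least like the others, and without it the log2 difference of IL6ST was -0.19 in place of -0.29. STAT3 was at 107 FPKM in control animal 4, against 82.5 to 91.1 FPKM (gap 0.657). SOCS3 was also highest in control animal 4, at 10.2 FPKM. SOCS1 was at 1.99 FPKM in control animal 5, against 1.06 to 1.34 FPKM (gap 0.699).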

How the results depend on the processing

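SOCS2 stayed past the nominal threshold in all 23 alternatives, including those that left out animals, with log2 differences of 0.40 (pseudocount 1) to 0.72. The number of genes past the threshold, 156, was 562 over all genes above 0, 301 with a filter of 0.1 FPKM or more in 6 animals, 367 with the muscle and fibroblast covariate, 316 without both animals least like the others, and 142 to 328 with 1 animal left out (328 without treated animal 6). The number higher in treated animals, 99, was 271, 168, 220, 205 and 79 to 203 in the same order. Of the 8 genes in the fit, 2 in place of 1 passed with median ratio scaling, voom and the covariate, the second being IL6ST, and 1 to 2 with 1 animal left out. IL11RA, outside the fit, also passed with pseudocounts of 0.1 (0.57) and 1 (0.23) and with the rank-sum test (0.80). Of the other pathway genes, 1 in place of 0 passed over all genes above 0 (IL27) and with robust empirical Bayes and voom (GHR). The same number passed with the covariate (NDUFA13), the exact rank-sum test (SOCS6) and without both animals least like the others (GHR), and 0 to 1 with 1 animal left out. IL27 had 5 reads in all 12 libraries together and was at 0 in 9 animals, among them every treated animal. It entered that fit through the control group alone, and its exact permutation p was 0.182.

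Both groups carry the replicate numbers 1 to 6 in the sample descriptions. The sample titles number the animals differently, and the study assigned animals to the groups at random, according to parity and milk production. Same-numbered animals had a mean correlation of 0.21 of their deviations from the group mean (-0.01 to 0.41), against -0.04 for differently numbered animals. Of the same-numbered pairs, 4 of 6 were above 0.1, and 3 of 6 correlated best with their own number. The study describes no pairing by number, so the main fit did not use one. What animals of the same number share was not tested. With the replicate number as a block, 320 genes passed the threshold (194 higher), SOCS2 among them, and 1 other pathway gene passed (GHR, log2 difference -1.03).

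With 1 animal left out, log2 differences ranged from -0.34 to -0.19 for IL6ST, -0.82 to -0.48 for LIFR, -0.064 to 0.38 for OSMR (negative without control animal 2), -0.22 to -0.0031 for IL6R, 0.54 to 0.89 for IL11RA, -0.093 to -0.052 for JAK1, -0.24 to -0.06 for STAT3, -0.25 to 0.23 for SOCS1 and -0.31 to 0.18 for SOCS3. The sign also turned for SOCS1 with a pseudocount of 1 (0.014), the rank-sum test (0.040) and without both animals least like the others (0.21), and for SOCS3 with the rank-sum test (0.23) and without both animals (0.028). The IL11RA to IL6ST ratio ranged from 0.73 to 1.21 on the log2 scale. The mean log2 level of the markers differed between treated and control by -0.80 to -0.43 for smooth muscle (-0.62 over all animals, exact permutation p = 0.0887), -0.33 to 0.20 for endothelium (-0.11), -0.046 to 0.15 for epithelium (0.04), -0.87 to -0.27 for fibroblasts (-0.63) and -0.31 to -0.02 for leukocytes (-0.20). The cause of these shifts was not tested. With 5 to 41 reads per animal, IL11RA and SOCS1 are limited by depth, as is GHR with at most 40 reads.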
